A study of Mus musculus with 6 samples.

Results

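Semaphorins are secreted or membrane-bound guidance proteins, and plexins are the transmembrane receptors that read them and signal to the actin cytoskeleton and to integrins. Secreted class 3 semaphorins mostly reach plexins of the A subfamily through the coreceptors neuropilin 1 and neuropilin 2, whereas class 4 to 7 semaphorins bind plexins directly. In the developing cerebellum the system is best known for the migration of granule cells: Plxna2 and its ligand Sema6a are needed for granule cells to leave the outer layer and move inward, and Plxnb2 acts in the proliferation and migration of their precursors. The genes described here are those whose symbols begin with Sema (classes 3 to 7), Plxna to Plxnd or Nrp1 and Nrp2 in the deposited count table. They are 31 of 23366 genes: 20 semaphorins, 9 plexins and 2 neuropilins, picked by name and not by their values. All 31 passed the filter on low counts, which kept 15731 genes.

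The RNA came from granule neurons cultured from the cerebella of postnatal day 7 C57BL/6 mice, a litter being dissociated together and the cells spun on a Percoll gradient. Both groups were infected with lentivirus on day 1 in vitro. The control group (n = 3) carried the empty pLKO.1 vector, and the knockdown group (n = 3) the vector with 1 short hairpin RNA against Kdm6b, the gene of a histone H3 lysine 27 demethylase. The growth protocol mentions BDNF for some cultures without saying which, and the labels call the replicates biological without tying them to litters or cultures. The design makes 1 comparison, knockdown against control, which asks how expression shifts when Kdm6b is lowered in these cultures.

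Gene counts per library ranged from 50326298 to 88214069, of which these 31 genes took 0.238% to 0.260%. Levels are given as CPM, a gene's count per 1000000 gene counts of its library, with library sizes scaled by TMM, a correction for composition. Kdm6b itself stood at 257, 146 and 170.5 CPM in control replicates 1 to 3 and at 88.8, 63.3 and 79.8 CPM with the hairpin, with no overlap. Its log2 fold change was −1.28 (SE 0.11, edgeR adjusted p = 0.0282) with a term for the replicate number and −1.31 (SE 0.25, edgeR adjusted p = 0.216) without it. The granule neuron genes Zic1 (985 ± 138 CPM with the empty vector and 1148 ± 193 CPM with the hairpin, SD, n = 3) and Cbln1 were abundant, and so was Gfap of astrocytes. Col1a1 of fibroblasts stood higher than Zic1 and Cbln1, at 6571 ± 2632 CPM with the empty vector and 2476 ± 1508 CPM with the hairpin (SD, n = 3). The cultures thus held RNA of other cells besides neurons. Libraries that share a replicate number departed from their group means in the same direction, with correlations across these 31 genes of 0.888, 0.784 and 0.814. Genes are not independent replicates, and deviations within a group sum to 0. A fit that blocks on replicate number is therefore given beside the fit that does not. These are bulk cultures, so fewer cells of a type and less RNA per cell cannot be told apart.

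**Figure D1:**
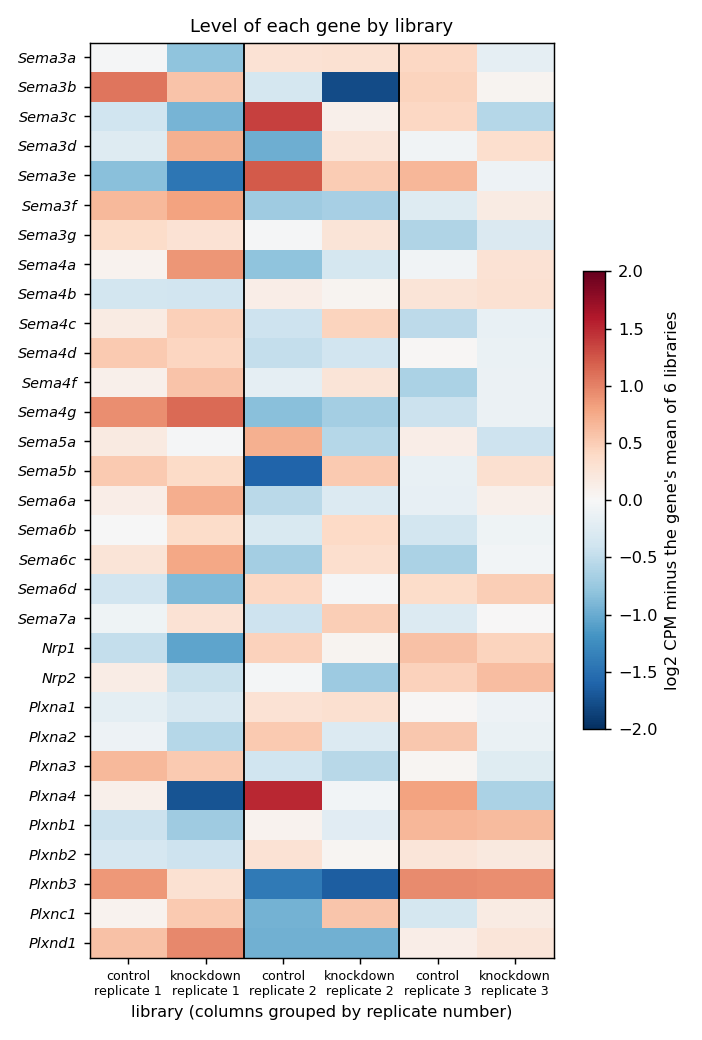
Log2 CPM of each gene in each library minus that gene's mean over the 6 libraries (color scale from −2 to 2), with libraries ordered by replicate number and vertical lines between numbers. Most rows differ more between replicate numbers than between control and knockdown of 1 number, as in Plxnd1, at 53.9 and 54.0 CPM in replicate 2 and 158 and 206 CPM in replicate 1.

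With the replicate number in the model, 2 plexin genes and 2 secreted semaphorin genes fell and 3 semaphorin genes rose. Plxna4, Sema3c, Sema3e and Plxna2 made up the lower group, with log2 fold changes from −1.61 to −0.65, and Sema3d, Sema6c and Sema4f the higher group, from 0.48 to 0.86. The remaining 24 genes, both neuropilins among them, did not pass. The 7 calls are 22.6% of the 31 genes, against 7.98% of all 15731 genes tested (quasi-likelihood test of edgeR, adjusted p under 0.05 by Benjamini-Hochberg over all genes). By direction, 3 were higher against a background of 2.58%, and 4 were lower against 5.4%. Without the block 0 of the 31 passed in edgeR, against 0.00636% of all genes, and 0 in limma-voom, against 1 of all 15731. DESeq2 without the block also called 0 of the 31, against 3.84% of all genes it gave an adjusted p. In that edgeR fit 7 of the 31 had an unadjusted p under 0.05, against 10.6% of all genes. The 7 calls with the block fell to 0 without replicate 1, to 1 (Plxna4) without replicate 2 and to 4 (Plxna4, Sema3d, Sema3e and, newly, Nrp2) without replicate 3. Over all genes tested the same fits called 0% without replicate 1, 0.332% without replicate 2 and 8.06% without replicate 3. DESeq2 with the block called 16 of the 31, against 23.7% of all genes it gave an adjusted p. These were the 7 genes above and Nrp1, Plxnc1, Sema3a, Sema3b, Sema4c, Sema5a, Sema6a, Sema6b and Sema7a.

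Taken as a list the 31 genes had no common direction. Their median log2 fold change was −0.06 both without and with the block, where all genes tested had 0.02. Without the block 14 were above 0 and 17 below, and 52.5% of all genes were above 0. Groups did not overlap for 6 of them, or 19.4%, close to the 16.6% of all genes tested. Of these, 3 were higher (background 9.21%) and 3 lower (background 7.44%). All 3 replicate pairs differed in 1 direction for 23 of the 31 (74.2%), against 60.3% of all genes tested. By class, the median with the block was −0.45 for the 7 secreted semaphorins, 0.46 for the 13 membrane-bound ones and −0.19 for the 9 plexins. In pairs 1 to 3 the median log2 difference was −0.49, 0.03 and −0.39 for the secreted semaphorins and 0.32, 0.44 and 0.29 for the membrane-bound ones. Without the block 3 of the 7 secreted and 9 of the 13 membrane-bound genes were above 0. The summed level of each of these 2 classes overlapped between the groups. The summed level of all 31 ranged from 2444 to 2564 CPM with the empty vector and from 2418 to 2507 CPM with the hairpin, ranges that overlap.

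**Figure D2:**
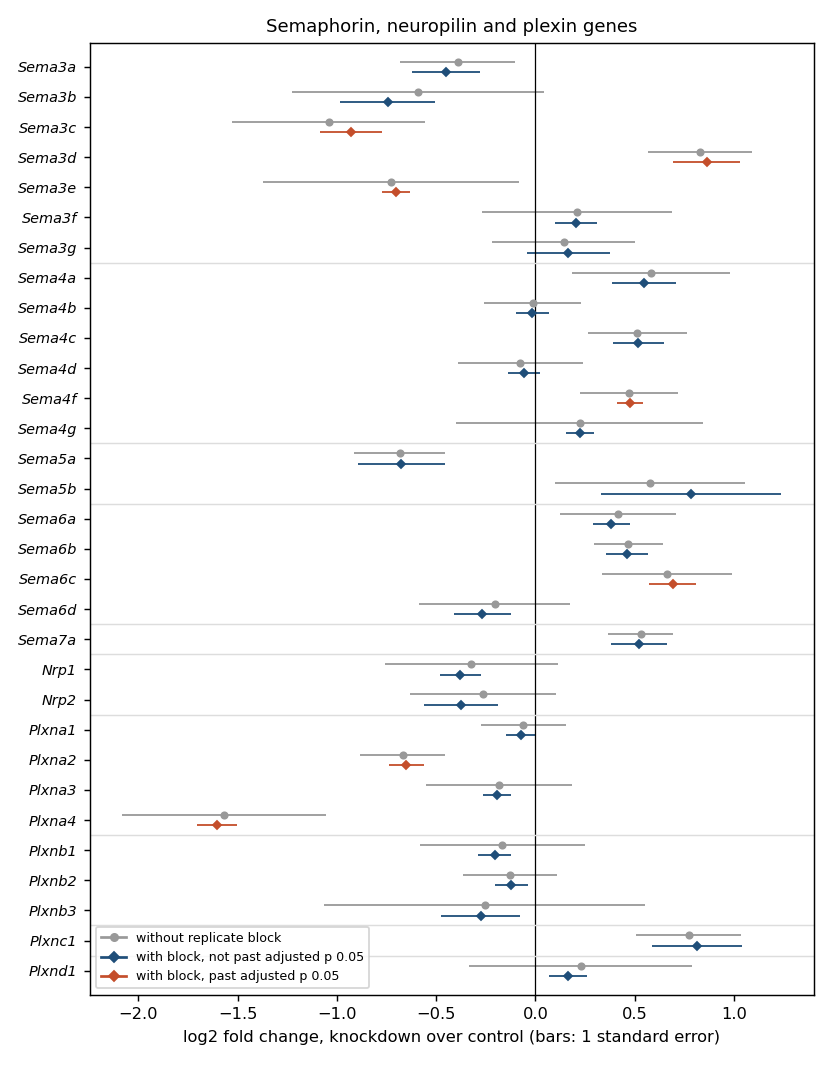
Log2 fold change, knockdown over control, for each of the 31 genes, in the fit without (circles) and with (diamonds) the replicate block, with bars of 1 standard error. Orange diamonds are the 7 genes past an adjusted p of 0.05 with the block, from Plxna4 at −1.61 to Sema3d at 0.86.

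Among the secreted ligands, Sema3c and Sema3e fell and Sema3d rose. Sema3c signals through neuropilins and plexins in heart and axon development. It was at 41.5, 141 and 72.4 CPM in control replicates 1 to 3 and at 28.7, 58.6 and 36.6 CPM with the hairpin. The groups overlapped because control replicate 1 lay below knockdown replicate 2, but each knockdown was below the control of its own number. The log2 fold change was −0.93 (SE 0.15, edgeR adjusted p = 0.0410) with the block and −1.04 (SE 0.49, edgeR adjusted p = 0.509) without it.

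Sema3e is the class 3 member that binds Plxnd1 without a neuropilin. It was at 20.3, 85.5 and 57.7 CPM with the empty vector and 13.3, 51.8 and 33.8 CPM with the hairpin. Controls alone spanned 4.21-fold, so the groups overlapped widely, while the pairs gave log2 differences of −0.61, −0.72 and −0.77. With the block it fell by 0.70 on the log2 scale (SE 0.07, edgeR adjusted p = 0.0282), and without the block its edgeR adjusted p was 0.711. Plxnd1, its receptor, was at 158, 53.9 and 116 CPM with the empty vector and 206, 54.0 and 125 CPM with the hairpin. Its log2 fold change was 0.16 (SE 0.09, edgeR adjusted p = 0.279 with the block).

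Sema3d, a neuropilin ligand, was at 41.2, 25.0 and 46.8 CPM with the empty vector and 80.7, 58.0 and 62.1 CPM with the hairpin. All 3 knockdown libraries lay above all 3 controls. Its log2 fold change was 0.86 (SE 0.17) with the block, at an edgeR adjusted p of 0.04999 that lies at the threshold and moved to 0.0507 with RLE size factors. Without the block the value was 0.83 (SE 0.26, edgeR adjusted p = 0.386).

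Sema3a, the repulsive ligand of neuropilin 1, had the highest level per length of its class, 24.7 ± 3.66 CPM per kilobase in controls (SD, n = 3). It was at 129, 159 and 174 CPM with the empty vector and 74.6, 162 and 116 CPM with the hairpin. Replicates 1 and 3 were lower in the knockdown and replicate 2 was level, and it did not pass (log2 fold change −0.45, SE 0.17, edgeR adjusted p = 0.143 with the block). Sema3b, Sema3f and Sema3g were lower in abundance, with control means of 8.43, 16.6 and 1.43 CPM. Their log2 fold changes with the block were −0.74 (SE 0.24), 0.21 (SE 0.11) and 0.17 (SE 0.21), and none passed in edgeR.

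**Figure D3:**
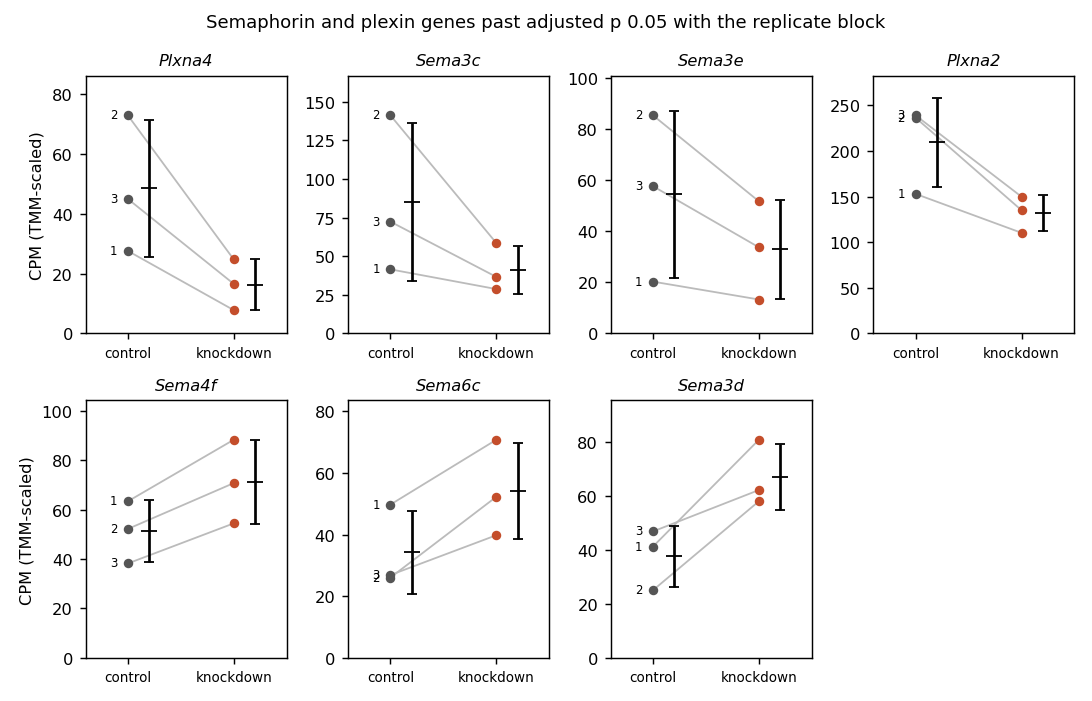
CPM (TMM-scaled, linear axes from 0) of the 7 genes past an adjusted p of 0.05 with the replicate block, grey lines joining the libraries that share a number and black bars giving the mean and SD (n = 3). In each panel all 3 lines run the same way, and the groups are separate for Plxna4, Plxna2 and Sema3d and overlap for Sema3c, Sema3e, Sema4f and Sema6c.

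In the membrane-bound classes 9 of 13 genes had a log2 fold change above 0 and 2 rose. Sema4f, a class 4 transmembrane semaphorin, was at 63.3, 52.1 and 38.2 CPM with the empty vector and 88.2, 70.7 and 54.4 CPM with the hairpin. The pairs agreed closely, with log2 differences of 0.48, 0.44 and 0.51, although knockdown replicate 3 lay below control replicate 1. The log2 fold change was 0.48 (SE 0.06, edgeR adjusted p = 0.0326) with the block, and the edgeR adjusted p was 0.541 without it.

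Sema6c, of the class that signals to A plexins from the cell surface, was at 49.7, 26.0 and 26.9 CPM with the empty vector and 70.7, 52.2 and 39.8 CPM with the hairpin. Each knockdown exceeded its own control, by 0.51 to 1.0 on the log2 scale, and control replicate 1 exceeded knockdown replicate 3. The log2 fold change was 0.69 (SE 0.12, edgeR adjusted p = 0.0436) with the block, against an edgeR adjusted p of 0.526 without it.

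Of the other class 6 genes, Sema6b had the highest level per length, 14.5 ± 2.00 CPM per kilobase in controls (SD, n = 3), and Sema6a was close at 13.7 ± 3.11. Sema6b was at 66.5, 54.1 and 51.8 CPM with the empty vector and 86.5, 88.9 and 63.4 CPM with the hairpin, with a log2 fold change of 0.46 (SE 0.10, edgeR adjusted p = 0.0606 with the block). Sema6a, the ligand of Plxna2 in the cerebellum, was at 119.8, 75.5 and 97.4 CPM with the empty vector and 182, 90.9 and 118 CPM with the hairpin. Both genes were higher in the knockdown of every pair with overlapping groups, and Sema6a did not pass either (0.38, SE 0.09, edgeR adjusted p = 0.0684 with the block). With library totals alone as the scale, the blocked fit called Sema4c, Sema6a and Sema6b as well, which gave 6 higher and 4 lower of the 31. Over all genes that scale turned the calls from 406 higher and 850 lower to 723 higher and 553 lower. Sema6d, a ligand of Plxna1, stood at 81.9 ± 22.9 and 71.0 ± 31.3 CPM (SD, n = 3; −0.27, SE 0.14).

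Among class 4 genes the highest level per length was that of Sema4g, at 278, 82.3 and 109 CPM with the empty vector and 321, 91.5 and 136 CPM with the hairpin. Replicate 1 stood over 2 times above the others in both groups, and the log2 fold change of 0.23 (SE 0.07, edgeR adjusted p = 0.101 with the block) did not pass. Sema4c, a ligand of Plxnb2, was at 100.3 ± 26.8 CPM with the empty vector and 143 ± 32.6 CPM with the hairpin (SD, n = 3; 0.52, SE 0.13, edgeR adjusted p = 0.0693 with the block). Exons of Sema4c overlap the opposite-strand gene D430040D24Rik over 334 bases, and whether counting used strand is not stated in the sources. Sema4a was low (3.87 ± 1.13 and 5.79 ± 2.40 CPM, SD, n = 3). Sema4d, the ligand of Plxnb1, and Sema4b lay near 0 at −0.06 (SE 0.08) and −0.02 (SE 0.08), and both turned positive with the block and library totals alone (0.013 and 0.056).

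Both class 5 semaphorins carry thrombospondin repeats, and their values went opposite ways without passing in edgeR. Sema5a was at 24.9, 36.0 and 24.1 CPM with the empty vector and 21.6, 14.8 and 16.4 CPM with the hairpin, all below the lowest control (log2 fold change −0.67, SE 0.22, edgeR adjusted p = 0.111 with the block), and DESeq2 with the block called it (DESeq2 adjusted p = 0.0153). Sema5b was at 64.1, 14.7 and 40.1 CPM with the empty vector and 58.0, 64.3 and 55.5 CPM with the hairpin. The knockdown libraries of Sema5b lay close together, while its controls spanned 4.35-fold, and control replicate 2 alone was below 40 CPM (0.79, SE 0.46, edgeR adjusted p = 0.282 with the block).

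Sema7a, a semaphorin held in the membrane by a lipid anchor, and its receptor Plxnc1 had knockdown values above all controls without passing in either edgeR fit. Sema7a was at 44.6, 35.3 and 39.1 CPM with the empty vector and 57.9, 66.5 and 47.4 CPM with the hairpin (log2 fold change 0.52, SE 0.14, edgeR adjusted p = 0.0814 with the block and 0.383 without). Plxnc1 was at 50.7, 25.3 and 38.1 CPM with the empty vector and 69.6, 71.0 and 54.4 CPM with the hairpin (0.81, SE 0.23, edgeR adjusted p = 0.0851 with the block and 0.407 without). In replicate 2 both showed their widest gap, 0.91 and 1.49 on the log2 scale. DESeq2 with the block called both (DESeq2 adjusted p = 0.0186 for Sema7a and 0.0041 for Plxnc1).

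Neither neuropilin passed in edgeR on all 6 libraries. Nrp1 was at 64.6, 124 and 136 CPM with the empty vector and 43.2, 93.6 and 122 CPM with the hairpin. Each knockdown was below its control, but the spread between replicate numbers was wider than the gap (log2 fold change −0.38, SE 0.10, edgeR adjusted p = 0.0785 with the block and 0.818 without), and DESeq2 with the block called it (DESeq2 adjusted p = 0.0166). Nrp2 was at 69.7, 61.1 and 86.8 CPM with the empty vector and 46.1, 38.0 and 97.3 CPM with the hairpin. Replicates 1 and 2 were lower and replicate 3 was higher in the knockdown (−0.37, SE 0.19, edgeR adjusted p = 0.225), and without replicate 3 the block gave −0.65 (edgeR adjusted p = 0.0381).

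Of the plexins, Plxna4 and Plxna2 fell. Plxna4, an A plexin that transmits Sema3a and Sema6a signals, was at 27.6, 73.0 and 45.0 CPM with the empty vector and 7.80, 24.8 and 16.6 CPM with the hairpin. Every knockdown library lay below every control, the pairs differing by −1.81, −1.56 and −1.44 on the log2 scale. The log2 fold change was −1.61 (SE 0.10, edgeR adjusted p = 0.0282) with the block and −1.57 (SE 0.51, edgeR adjusted p = 0.396) without it, and controls alone spanned 2.64-fold. It was lost with the block without replicate 1 (−1.50, edgeR adjusted p = 0.0933) and kept at the margin without replicate 2 (−1.65, edgeR adjusted p = 0.0499). An annotated transcript on the opposite strand, Plxna4os3, overlaps 110 bases of its exons.

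Plxna2, the granule cell receptor of Sema6a, was at 153, 236 and 239 CPM with the empty vector and 110.3, 135 and 149.9 CPM with the hairpin. The highest knockdown value lay just under the lowest control value, and the pairs differed by −0.47, −0.81 and −0.67 on the log2 scale. The log2 fold change was −0.65 (SE 0.09, edgeR adjusted p = 0.0326) with the block and −0.67 (SE 0.22, edgeR adjusted p = 0.392) without it. The blocked call was lost without any 1 of the 3 pairs (edgeR adjusted p from 0.0502 to 0.105).

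Plxna1, Plxna3 and the B plexins did not pass in either edgeR fit. Plxnb2 had the highest level per length of all 31 genes, 59.3 ± 13.3 CPM per kilobase in controls (SD, n = 3), and Plxna1 was next at 35.8 ± 5.97, with Sema4g close below it. Plxnb2 was at 289, 447 and 432 CPM with the empty vector and 275, 375 and 419 CPM with the hairpin (log2 fold change −0.12, SE 0.08). Plxna1 was at 273, 380.3 and 316 CPM with the empty vector and 249, 389.6 and 291 CPM with the hairpin (−0.07, SE 0.08), and its sign turned with library totals alone in the fit without the block (0.0077). Exons of Plxna1 and Plxnb1 overlap the opposite-strand genes Gm26811 and Gm7628. Plxna3 (−0.19, SE 0.07), Plxnb1 (−0.21, SE 0.09) and Plxnb3 (−0.28, SE 0.20) were lower in every knockdown of a pair, by margins that missed the threshold. Plxnb3 was near the bottom of the list, at 3.52, 0.720 and 3.72 CPM with the empty vector and 2.38, 0.612 and 3.67 CPM with the hairpin. Both of its replicate 2 libraries were the low ones.

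**Figure D4:**
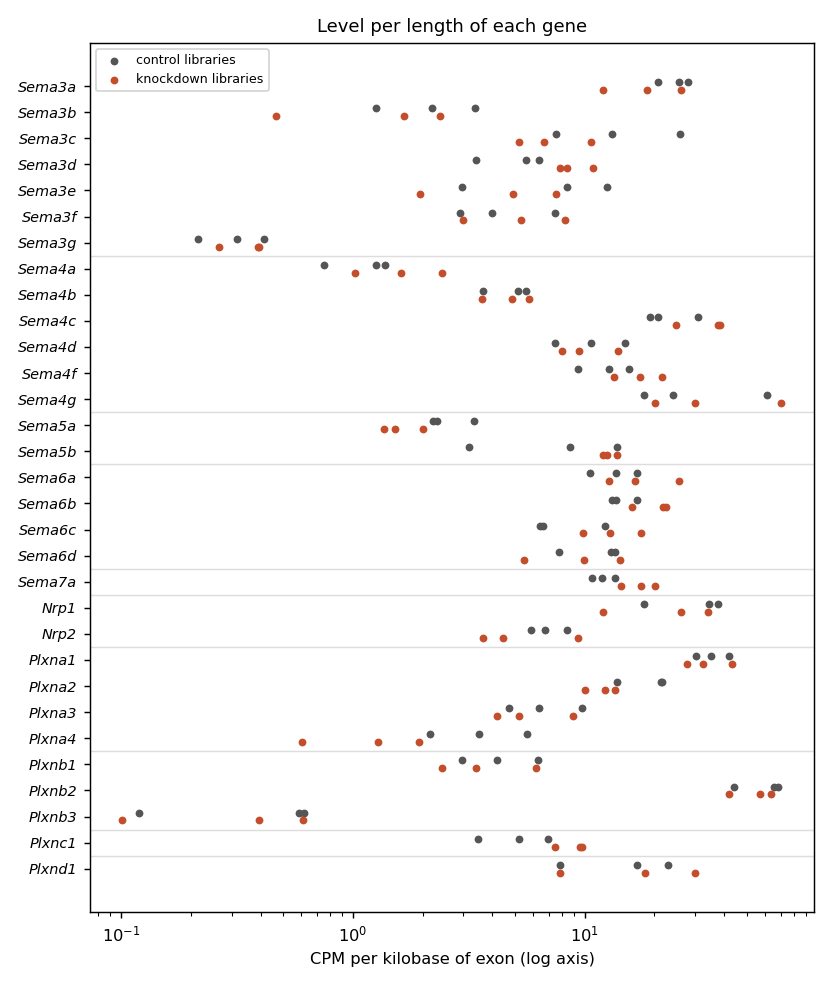
CPM per kilobase of exon (log axis) of each gene in each library, controls in grey and knockdowns in orange, with exon lengths from GENCODE M21. Plxnb2 stands highest (control mean 59.3) and Sema3g lowest (control mean 0.316), and the orange points of Plxna4, Plxna2 and Sema5a lie to the left of the grey ones.

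The hairpin is shown with 3′ UTR sites of these genes because earlier results of these data had drawn attention to a 7-base word of the hairpin among lowered genes. The strand given in the labels has 21 bases, with that word at bases 8 to 14 in capitals.
Kdm6b hairpin: gttcgttACAAGTGagaactc
The word occurred in the longest annotated 3′ UTR of 7 of the 31 genes, each with 1 site, and in 11.2% of 18999 genes of the table that have an annotated 3′ UTR. Both lowered plexins hold it, and so do 5 genes that did not pass. As the word was taken from lowered genes of these same data, its presence in lowered genes here is not independent of that choice. The sites with 10 bases on either side, word in capitals, read as follows.
Plxna4: taacacaaaaACAAGTGgacactcaat
Plxna2: aatgcaactgACAAGTGgagagagaaa
Nrp2: agaaaacaaaACAAGTGtagtattgcc
Plxnb1: gttagaagctACAAGTGagcttcaaga
Sema3a: gatttcccatACAAGTGatgcggtggc
Sema3f: tgcctggtcaACAAGTGgagcacattc
Sema4g: ctgaactaggACAAGTGgccaacactg
The lowered Sema3c and Sema3e lack the word, as do the 3 genes that rose. Sema3f and Sema4g hold it and had log2 fold changes of 0.21 and 0.23 with the block. A second word, GAGAACT, starts at base 14 of the hairpin and occurs in 12.8% of the 18999 genes. It was found in 7 of the 31 genes, with 2 sites each in Plxna2, Plxna4 and Sema4b and 1 each in Sema3e, Plxna3, Plxnb1 and Sema5b. Of these 7, Plxna2, Plxna4 and Sema3e fell and the others were not called, Sema5b having a log2 fold change of 0.79 with the block. The UTRs of Plxna4 and Plxna2 are long, at 6221 and 4708 bases. A match is a description of letters, and the part of these words in the levels was not tested.

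The promoters of these genes, taken by RefSeq (build GRCm38.p6) as 300 bases around a gene's start, were rich in CpG. The table held 37 promoters for 26 of the 31 genes, with no entry matched for Plxna1, Plxna4, Sema3b, Sema3f and Sema6a. The median number of CpG dinucleotides was 15 per promoter, against 7 over all 32851 promoters in the table, expressed or not. GGGCGG, the GC box, was present on 1 or the other strand in 27 of the 37, against 35.7% of all promoters, and TATAAA in 0 of the 37, against 13.6%. Sema3c, which fell, and Sema4f, which rose, are printed as the promoter with the most CpG of the 37 and one with fewer (42 and 7 CpG), 5′ to 3′ on the gene's strand, with the GC box in capitals on either strand. Sema3c lies on the plus strand at chr5:17574566-17574865 and Sema4f on the minus strand at chr6:82939720-82940019.
Sema3c: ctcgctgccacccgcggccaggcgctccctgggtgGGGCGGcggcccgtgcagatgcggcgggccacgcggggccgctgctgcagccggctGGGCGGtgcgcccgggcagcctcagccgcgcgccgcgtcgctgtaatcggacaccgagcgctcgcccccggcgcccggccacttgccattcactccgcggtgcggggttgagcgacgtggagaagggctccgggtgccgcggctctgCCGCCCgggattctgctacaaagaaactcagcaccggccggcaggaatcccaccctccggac
Sema4f: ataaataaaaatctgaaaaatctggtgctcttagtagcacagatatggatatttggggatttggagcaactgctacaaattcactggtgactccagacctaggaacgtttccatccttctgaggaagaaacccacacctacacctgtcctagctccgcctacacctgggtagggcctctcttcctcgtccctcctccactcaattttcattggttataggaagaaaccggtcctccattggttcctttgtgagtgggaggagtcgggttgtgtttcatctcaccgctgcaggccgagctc
The counts carry no measure of promoter state, and no relation between promoter sequence and expression was tested.

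Coreceptors, signal transducers and other neuropilin ligands of the pathway were drawn up as a list of 62 genes, of which 60 are in the table and all 60 were tested. With the block 7 of them (11.7%) fell and 0 rose, against 5.4% lower and 2.58% higher of all genes. Without the block 0 passed in edgeR, and 13 (21.7%) had an unadjusted p under 0.05, against 10.6% of all genes. In limma-voom without the block 0 passed, against 1 of all 15731 genes. DESeq2 without the block called 4, all lower, against 3.84% of all genes it gave an adjusted p. The median log2 fold change with the block was −0.15, against 0.02 for all genes tested. By part of the list it was −0.52 for 16 coreceptors and modifiers, −0.05 for 38 signal transducers and −0.56 for 6 other neuropilin ligands.

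Of the 38 signal transducers tested, 4 fell and 0 rose with the block, against 5.4% lower and 2.58% higher of all genes. Without the block 18 of them lay above 0 and 20 below. The transducers that fell work downstream of plexins. Mical2, an oxidoreductase that disassembles actin filaments, went from 156 ± 68.9 to 70.5 ± 15.8 CPM (SD, n = 3; −1.07, SE 0.17, edgeR adjusted p = 0.0381). Farp1, an exchange factor for Rac that binds A plexins, fell from 137 ± 44.7 to 80.0 ± 19.7 CPM (SD, n = 3; −0.75, SE 0.09). Rnd3 fell by 1.25 on the log2 scale (SE 0.17), and the kinase gene Pak1 by 0.60 (SE 0.11). The adhesion protein gene Cntn2 fell from 301 ± 31.6 to 204 ± 8.28 CPM (SD, n = 3; −0.55, SE 0.08). Among growth factors that also bind neuropilins, Hgf was at 5.30 ± 0.238 CPM with the empty vector and 0.773 ± 0.598 CPM with the hairpin (SD, n = 3; −2.98, SE 0.45), and Tgfb1 fell by 1.08 on the log2 scale (SE 0.20). These values are from the edgeR fit with the block, where the 7 adjusted p lay from 0.0282 to 0.0463, and without the block from 0.239 to 0.465. Without replicate 1 the blocked fit called 0 of the 60, and 0% of all genes.

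Among markers of other cell types, 12 of 15 genes of pericytes and fibroblasts had a log2 fold change below 0 without the block. With the block 8 of the 15 fell and 0 rose, against 5.4% lower and 2.58% higher of all genes tested. Rgs5, Kcnj8 and Vtn lay above 0 without passing (0.42, 0.22 and 0.21 with the block). The summed level of the 15 was 14470 to 27244 CPM with the empty vector and 4628 to 12317 CPM with the hairpin, with no overlap. Col1a1, Col1a2, Col3a1 and Fn1 weighed most in that sum, with control means from 4048 to 6571 CPM. Of 12 microglia and macrophage genes 1 fell, the sum going from a range of 74.3 to 197 CPM to one of 33.3 to 89.3 CPM, ranges that overlap. The median log2 difference of those 12 genes was −3.13 in pair 1, −0.25 in pair 2 and −0.22 in pair 3. Endothelial genes gave 0 of 12 in either direction, with sums of 89.5 to 159.6 CPM with the empty vector and 70.3 to 169.8 CPM with the hairpin. In each edgeR fit 1 of the 12 had an unadjusted p under 0.05, against 10.6% of all genes without the block and 34.1% with it.

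With the block, of 12 genes each, astrocytes and Bergmann glia had 1 lower, the oligodendrocyte lineage 2 lower and the cell cycle 3 lower. Over all genes tested that fit called 5.4% lower and 2.58% higher, the shares to set beside each list here. Newborn granule neuron genes gave 3 higher (Tubb3, Nhlh2 and Barhl1) and 1 lower (Cntn1) of 12, and mature granule neuron genes 2 lower (Etv1 and Grm4) of 12. Summed levels of these 5 lists overlapped between the groups. Of 10 genes of GABAergic interneurons 1 was higher and 1 lower, and of 6 Purkinje cell genes tested 1 was lower. No marker was at 0 in all libraries, the lowest being the Purkinje gene Pcp2 with means of 0.0130 and 0.00745 CPM. The part of these cells in the levels of the semaphorin, plexin and neuropilin genes was not tested.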

How the data were processed

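For each of the 6 libraries the authors deposited raw read counts by gene. The submitters' processing notes name build mm9 and the tools Trimmomatic, TopHat2, HTSeq, edgeR and DESeq2, without versions, settings, annotation or strand handling. Tallies that name no gene (reads outside genes 12.1% to 15.0%, ambiguous 0.406% to 0.509%, not uniquely aligned 16.0% to 19.3% of counts) were left out. Low-count genes were filtered with filterByExpr (minimum 10, total 15), libraries scaled with TMM, and all genes fitted in edgeR 4.0.16 (R 4.3.3), with Benjamini-Hochberg adjustment at 0.05, without and with the replicate number as a block. SE is |log2 fold change| over the root of F. Same-numbered libraries correlated over all genes at 0.772, 0.709 and 0.701 in their deviations from group means and differently numbered ones at −0.532 to −0.135. The pairing comes from the data, not the labels, and the blocked value is printed where it changes a call. No 2 libraries of a group were alike within counting error (chi-square from 174 to 381 per degree of freedom). With 3 against 3 libraries an exact two-sided permutation test cannot go below 0.1.

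Genes described were chosen by symbol, and partner and marker lists from general knowledge, with earlier results of these data known. Per-library values are printed for genes called in either fit, for those at a mean of at least 1 CPM whose groups do not overlap and for the highest of each class per length, and a few more were chosen after their values were seen (Sema6a, Nrp2 and Plxnb3). Partner genes named are those called with the block. CPM per kilobase used union exon lengths of GENCODE M21 (GRCm38), matched by symbol for 31 of 31 genes. Both fits were tested on simulated counts, drawn with differences between replicate numbers built in. The fit without the block missed the smaller changes put in and most of the largest. The fit with it found many of them but had a larger share of unchanged genes among its calls than the threshold allows. As the simulated libraries were paired by design, this cannot show whether the real ones are paired, nor which fit suits them.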

Additional observations from a re-analysis of the deposited data

How the results depend on the processing

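Scaling (RLE, upper-quartile, library totals), filtering (none, or a mean of at least 5 CPM), the tool (DESeq2 1.42.0, limma 3.58.1 with voom), the replicate block and the libraries used were varied, and the block was also combined with each. Each single-gene value for the 31 genes, Kdm6b and the 7 partner genes named above was set against the edgeR fit without the block. None of these genes passed in that fit, so no call could be lost. Of the values, 758 kept their direction and stayed on the same side of the threshold, that is, did not pass. Another 143 kept their direction and passed it newly, and 27 changed sign, none of them a called gene. These counts do not show how stable the blocked calls are. Of the 31 genes 0 were called in either direction in the fit without the block and in all of its alternatives without the block. Over all genes each of those fits called 0 or 1, except DESeq2 with 568. Counts with the block are given as higher, then lower. With the replicate block, which uses the pairing of libraries by number, they were 3 and 4, as they were with the block and upper-quartile factors, no filter, the 5 CPM filter or limma-voom. The block with RLE factors gave 2 and 4, with library totals 6 and 4, and with DESeq2 8 and 8. Of all 15731 genes tested the block called 406 and 850, with upper-quartile factors 448 and 902 and with limma-voom 468 and 926. It called 370 and 972 with RLE factors, 723 and 553 with library totals and 1175 and 2265 with DESeq2. With no filter it called 495 and 1103 of 19644 genes, and with the 5 CPM filter 526 and 913 of 11782. With the block the counts among the 31 were 0 and 0 without replicate 1, 0 and 1 without replicate 2, and 1 and 3 without replicate 3. Over all genes the same fits gave 0 and 0 of 15639, 13 and 40 of 15987, and 225 and 1047 of 15788.

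For the partner genes DESeq2 without the block gave 4 lower, and over all genes 390 lower and 178 higher. The block gave 7 lower, also with upper-quartile factors, the 5 CPM filter or limma-voom, and 8 lower with RLE factors. With the block, library totals gave 3 higher and 4 lower, and no filter 1 higher and 10 lower. DESeq2 with the block gave 5 higher and 20 lower, where it called 23.7% of all genes it gave an adjusted p. Leaving out replicate 3 gave 12 lower, where that fit called 8.06% of all genes. The counts over all genes in the other blocked fits are those given above. The cause of these shifts was not tested, except that fewer libraries enter where some are left out. The block changed no call among the 31 and the partner genes other than those given here and in the results.

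The median log2 fold change of the family lay between −0.070 and 0.14 when 1 library was left out. Without the block and with library totals Plxna1 was at 0.0077 and Sema4b at 0.069, and with the block and library totals Sema4b was at 0.056 and Sema4d at 0.013. Leaving out 1 library without the block gave ranges that cross 0 for Plxna1 (−0.27 to 0.074), Plxna3 (−0.56 to 0.14), Plxnb1 (−0.62 to 0.15), Plxnb2 (−0.30 to 0.028), Plxnb3 (−0.82 to 0.17), Plxnd1 (−0.29 to 0.59), Sema3f (−0.20 to 0.68), Sema3g (−0.081 to 0.39), Sema4b (−0.18 to 0.15), Sema4d (−0.34 to 0.21), Sema4g (−0.46 to 0.93) and Sema6d (−0.56 to 0.083). None of these genes passed the test. Plxnb3, Sema3g, Sema4a and Hgf averaged under 5 CPM and gave no value under that filter.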
